A study of Mus musculus with 126 samples.

Results

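The 53 genes described here encode the machinery that brings new secretory and membrane proteins into the endoplasmic reticulum (ER), folds them there and sends them on. They were chosen as a list of gene symbols with earlier results of these data known, so counts against all genes are a description of this list. All 53 were found among the 48490 gene identifiers of an FPKM table (fragments scaled to transcript length and to the mapped fragments of a cell) of single mouse cells. The list holds 5 ER chaperones, 7 cochaperones and folding helpers, 6 oxidoreductases with a thioredoxin fold, 4 prolyl isomerases, 10 genes of the translocon and its partners, 8 genes of the oligosaccharyltransferase, 5 of the signal peptidase, 4 stress response regulators, and 4 further genes, 3 for vesicle cargo receptors and 1 for a calcium-binding protein.

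A nascent secretory protein enters the ER through the Sec61 channel, loses its signal peptide to the signal peptidase and receives sugar chains from the oligosaccharyltransferase. Chaperones such as BiP (encoded by Hspa5) and calreticulin (Calr) hold it while disulfide and prolyl isomerases shape it, and cargo receptors then load it into vesicles. When unfolded protein builds up, the transcription factors Xbp1, Atf6 and Atf4 raise many of these genes. Secretory epithelia depend on this machinery, and the epithelium of the endolymphatic sac secretes matrix proteins such as otoconin-90 (Oc90) into the fluid of the inner ear.

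The cells came from endolymphatic sacs of mouse embryos at E14.5, and 33 were labelled wild type and 93 heterozygous for the Sox9 Y440X allele (Sox9 Y440X/+, called mutant below). Sox9 encodes a transcription factor of inner ear development, and the labels name no driver or cell type for the allele and no clone or pool. Libraries were made by Smart-seq2, a full-length protocol for single cells that uses no molecular identifiers, and the labels name no animal, litter or plate. Each genotype therefore counts as 1 sample of many cells, no test between groups was made, and SDs are over cells.

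The genotypes differed in more than the allele. All 93 mutant cells carry the title prefix P9, which the labels do not define, whereas 32 of 33 wild-type cells carry P10 and 1 carries P9. A Y-linked transcript was detected in 32 wild-type cells and in 4 mutant cells, so genotype, prefix and sex cannot be told apart. A median of 5329 genes was listed above 0 in wild-type cells and 4423 in mutant cells, with a range of 2035 to 9358, and the read depth is unknown. Clustering gave 98 epithelial-like cells (29 wild type, 69 mutant), 9 mitochondria-rich-like cells and 1 mixed cluster of 19 cells that stayed unnamed. The wild-type epithelial-like cells lay mostly in a cluster led by Oc90 (19 of 29), and the mutant ones in a cluster led by Aldh1a1 (37 of 69, with 0 wild-type cells) and one led by Aldh1a3 (28 of 69, with 10 wild-type cells). In the Aldh1a3 cluster alone, the per-cell mean of the 53 genes was 4.28 ± 0.52 (SD, 28 cells) in mutant and 5.08 ± 0.40 (SD, 10 cells) in wild-type cells on the log2(FPKM + 1) scale. The mutant cells there also listed fewer genes (median 4398.5 against 4958.5). In the Oc90 cluster, which also holds both genotypes, the mean was not lower in mutant cells. It was 5.85 ± 0.62 (SD, 4 cells) in mutant and 5.76 ± 0.41 (SD, 19 cells) in wild-type cells, with medians of 6941.5 and 5404 listed genes. The label of the mutant cells at 5.83 and 6.35 is in doubt, since they held a Y-linked transcript with Xist at 0. The remaining mutant cells were at 6.23 and 4.97, so the direction in this cluster is uncertain.

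Several of these genes share a known regulatory letter sequence, shown here because most of the genes lay on 1 side of 0 in several comparisons below. The ER stress response element (ERSE), the site read by Atf6 together with the CCAAT-binding factor NF-Y, was searched as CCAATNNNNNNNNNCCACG on both strands, in windows from 250 bases before to 50 bases after the transcript start (RefSeq, GRCm38.p6). Windows were at hand for 41 of the 53 genes, and 7 of these held an ERSE (17.1%), against 0.137% of all 27025 genes with a window. These were Hspa5, Hsp90b1, Calr, Canx, Dnajc3, Creld2 and Pdia6. The shorter ERSE-II, searched as ATTGG and CCACG with 1 base of any kind between them, stood in the windows of Dnajb11, Krtcap2 and Herpud1 (7.32%, against 0.0444% of all genes). The UPRE core TGACGTGG, a site of spliced Xbp1, was found in 0 of the 41 windows and in 0.714% of all. Every ERSE match also contains a match to CCAAT and to CCACG. Counted with or without the other, these occurred in 41.1% and 35.5% of all genes with a window. Among the 41 ER genes with a window the shares were 82.9% and 80.5%. A match is a description of letters, not a shown binding site.

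The windows of 6 of these genes are printed 5′ to 3′ on the strand of the gene, with the ERSE or ERSE-II in capitals, to show how the sites sit near the start. They are Hspa5 at chr2:34771840-34772139 (plus strand), Hsp90b1 at chr10:86705395-86705694 (minus strand), Calr at chr8:84846882-84847181 (minus strand), Pdia6 at chr12:17266339-17266638 (plus strand), Creld2 at chr15:88819396-88819695 (plus strand) and Dnajb11 at chr16:22857595-22857894 (plus strand).
Hspa5: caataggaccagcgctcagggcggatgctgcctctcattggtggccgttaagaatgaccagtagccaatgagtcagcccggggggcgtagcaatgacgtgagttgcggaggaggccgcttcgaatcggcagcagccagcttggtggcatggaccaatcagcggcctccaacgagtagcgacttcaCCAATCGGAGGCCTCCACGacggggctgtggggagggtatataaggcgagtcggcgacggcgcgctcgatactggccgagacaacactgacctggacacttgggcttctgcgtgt
Hsp90b1: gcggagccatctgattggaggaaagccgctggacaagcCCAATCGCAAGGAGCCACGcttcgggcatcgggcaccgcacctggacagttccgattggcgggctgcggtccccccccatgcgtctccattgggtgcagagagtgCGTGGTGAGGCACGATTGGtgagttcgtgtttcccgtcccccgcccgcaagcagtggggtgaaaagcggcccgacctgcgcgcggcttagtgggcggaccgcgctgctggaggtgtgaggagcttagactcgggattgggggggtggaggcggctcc
Calr: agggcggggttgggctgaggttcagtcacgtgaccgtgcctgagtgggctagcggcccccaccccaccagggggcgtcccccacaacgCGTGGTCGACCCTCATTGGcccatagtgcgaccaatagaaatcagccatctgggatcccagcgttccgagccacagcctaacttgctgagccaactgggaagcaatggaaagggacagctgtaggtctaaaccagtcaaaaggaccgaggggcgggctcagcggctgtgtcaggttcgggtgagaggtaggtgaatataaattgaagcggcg
Pdia6: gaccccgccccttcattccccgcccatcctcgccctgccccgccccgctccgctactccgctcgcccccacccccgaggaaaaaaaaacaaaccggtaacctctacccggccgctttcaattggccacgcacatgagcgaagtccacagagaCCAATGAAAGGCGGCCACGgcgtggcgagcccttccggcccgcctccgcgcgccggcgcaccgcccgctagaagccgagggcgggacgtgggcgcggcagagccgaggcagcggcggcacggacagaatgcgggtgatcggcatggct
Creld2: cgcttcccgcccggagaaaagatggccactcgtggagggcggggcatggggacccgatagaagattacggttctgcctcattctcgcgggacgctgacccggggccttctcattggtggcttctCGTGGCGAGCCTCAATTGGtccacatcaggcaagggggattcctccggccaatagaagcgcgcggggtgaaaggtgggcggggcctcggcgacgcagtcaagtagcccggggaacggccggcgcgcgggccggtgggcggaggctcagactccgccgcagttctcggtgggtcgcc
Dnajb11: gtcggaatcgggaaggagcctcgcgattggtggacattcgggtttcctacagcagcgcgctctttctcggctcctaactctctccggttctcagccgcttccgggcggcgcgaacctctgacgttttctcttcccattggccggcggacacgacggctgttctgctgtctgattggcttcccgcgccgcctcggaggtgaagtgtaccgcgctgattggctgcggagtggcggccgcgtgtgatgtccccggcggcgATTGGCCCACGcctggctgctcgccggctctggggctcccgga

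The Hspa5 site began 65 bases before the transcript start and read in the direction of the gene. Hsp90b1 held 2 sites, one on each strand, and the sites of Calr and Creld2 read on the opposite strand. The Dnajb11 site began 7 bases past the start. The matches in the other 4 windows were as follows, each printed alone and on the strand of the gene.
Canx: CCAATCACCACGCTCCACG
Dnajc3: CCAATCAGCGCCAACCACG
Krtcap2: ATTGGACCACG
Herpud1: ATTGGGCCACG

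In wild-type epithelial-like cells the machinery was abundant but uneven. FPKM is scaled to transcript length, so levels can be ranked between genes, although a mean of log2(FPKM + 1) mixes level with the share of detecting cells. Ppib (cyclophilin B, a prolyl isomerase) had the highest mean log2(FPKM + 1) of the 53, at 10.46, followed by Ssr4 (a subunit of the translocon-associated TRAP complex) at 9.45, Pdia3 (the disulfide isomerase ERp57) at 9.34 and Ssr2 at 9.09. Hspa5 ranked 9 and Calr 10. At the other end were Hyou1 (a large chaperone of the Hsp70 family) at 0.52, Herpud1 (a component of ER-associated degradation) at 1.03 and Sec63 (a partner of the Sec61 channel) at 1.24. Over all 126 cells, 44 of the 53 genes reached 1 FPKM in 50% of cells or more and 19 in 90% or more. Exons of 22 of the 53 genes overlap those of another gene in the annotation, which makes their levels less certain, since the strand setting is unknown.

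The ER genes were lower in mutant than in wild-type epithelial-like cells. The per-cell mean over the 53 genes was 4.76 ± 0.69 (SD, 69 cells) in mutant and 5.52 ± 0.52 (SD, 29 cells) in wild-type cells. The lowest, median and highest cells were 3.01, 4.76 and 6.35 in mutant and 4.24, 5.47 and 6.35 in wild-type cells, so the groups overlapped. Mutant cells also listed fewer genes overall (median 4488 against 5159), and the median difference over the 6275 genes tested was -0.26. A gene was tested when the shares of cells with 1 FPKM or more, averaged over both groups, came to 25% or above. Differences are given below less that median and are called relative differences, on the scale of mean log2(FPKM + 1).

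Of the 51 ER genes tested, 40 lay below 0, and their median relative difference was -0.69. A relative difference of -1 or lower was found in 14 of them, against 7.06% of all genes tested, and of 1 or higher in 3, against 4.83%. Difference and level were linked over all genes, so the ER genes were also read against genes of like mean level, in 8 bands of equal gene number. After subtracting the median of its own band from each gene, the median of the ER genes was -0.56. In the highest band, which holds 26 of them, their median was -0.94 against -0.15 for all 784 genes of that band. The next lower band, with 12 ER genes, went the other way. Their median there was 0.33 against -0.20 for all genes of the band, with 0 at -1 or lower and 3 at 1 or higher. The lowering was thus not uniform over levels. Of the 8 lowest genes, Fkbp11, Fkbp2, Krtcap2, Ssr4 and Pdia6 stayed at -1 or lower under every alternative that tested them. Calr came to -0.87 as log2 of mean FPKM, Xbp1 to -0.75 with a pseudocount of 10, and Sec11c to -0.78 in cells with 3000 to 5000 listed genes. Of the 3 at 1 or higher, Rcn2 stayed there, while Sec61a1 came to 0.41 and Spcs2 to 0.38 as log2 of mean FPKM. In the plot of the 51 genes by role, the prolyl isomerases and oxidoreductases lie on the lower side throughout, whereas the translocon, oligosaccharyltransferase and cargo receptor genes spread to both sides.

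**Figure D1:**
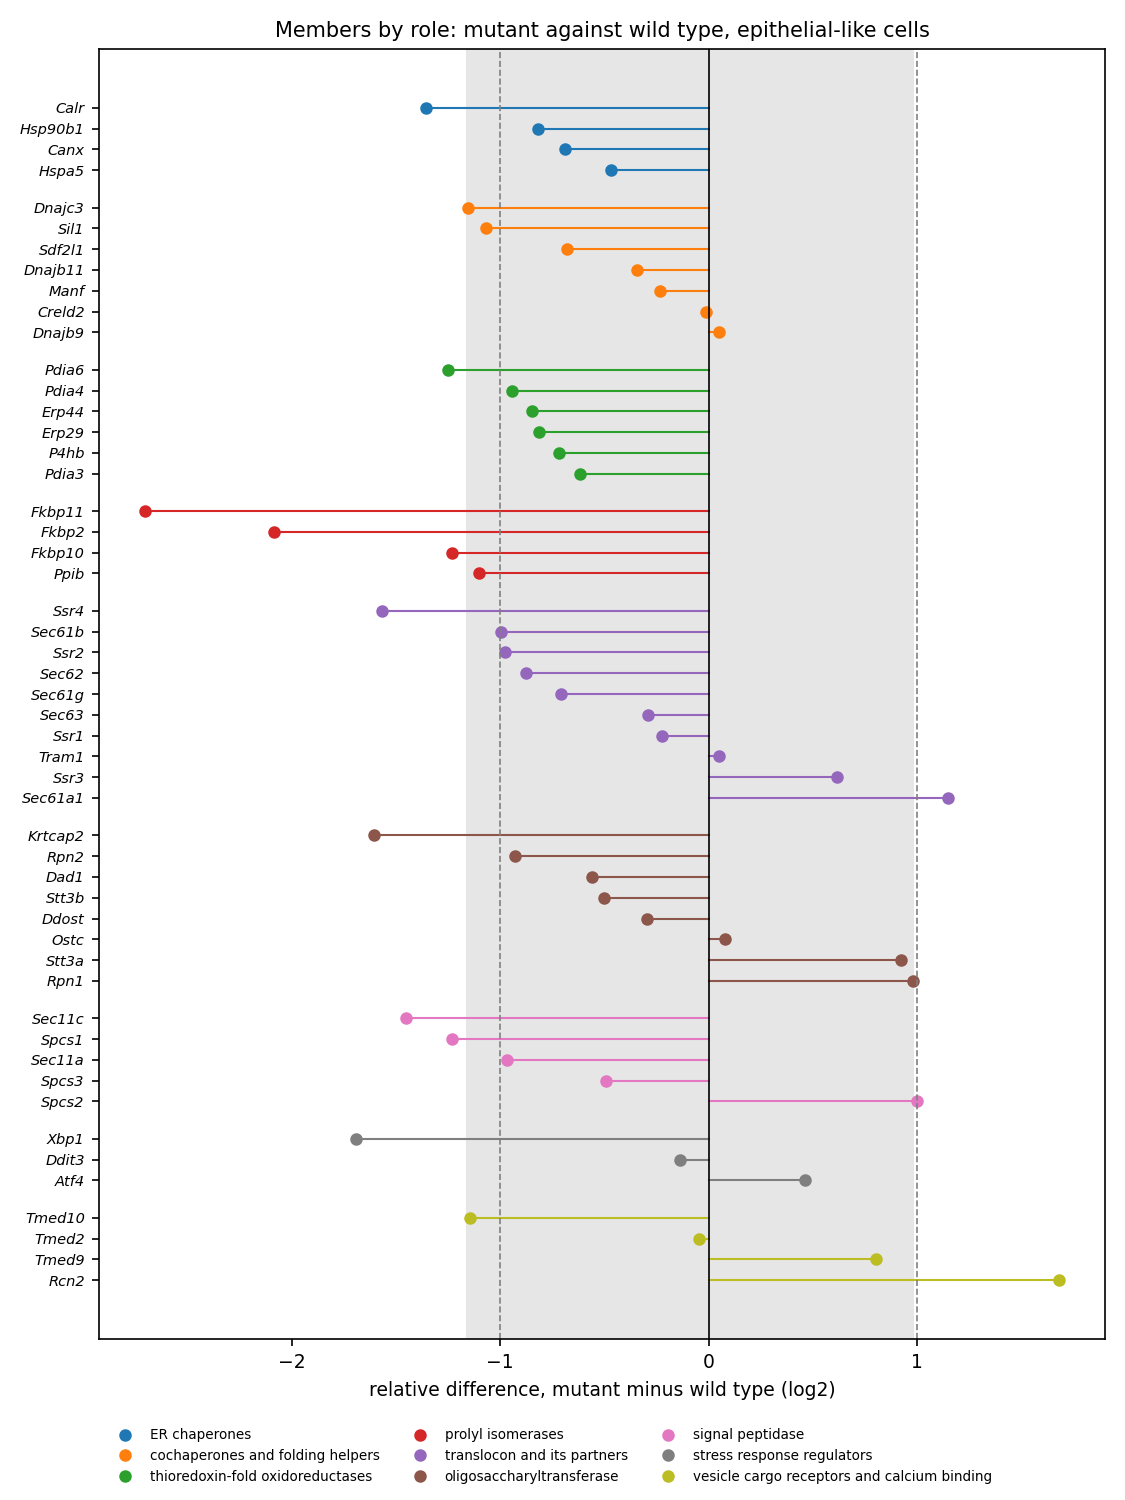
Relative difference of each tested gene, mutant minus wild type, on the log2(FPKM + 1) scale (x axis, 69 and 29 epithelial-like cells), grouped and coloured by role. The grey area spans the 5th to 95th percentile of all 6275 genes tested and dashed lines mark -1 and 1. Fkbp11 lies farthest to the left at -2.70 and Rcn2 farthest to the right at 1.68.

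Among the chaperones, all 4 that were tested lay below 0, and 1 passed -1. Calr (ENSMUSG00000003814.8, mm10 chromosome 8, 84841850 to 84846934), the lectin chaperone of glycoproteins, was at 0, 166 and 859 FPKM in the lowest, median and highest mutant cell and at 62.4, 343 and 874 FPKM in wild-type cells. No wild-type cell was thus below 62.4 FPKM while some mutant cells were at 0, and the relative difference was -1.35. Hspa5 (ENSMUSG00000026864.13, chromosome 2, 34771970 to 34777547), the central Hsp70 chaperone, was detected in every epithelial-like cell. Its levels were 7.4, 211 and 787 FPKM in mutant and 47.1, 367 and 1576 FPKM in wild-type cells, for a relative difference of -0.47. Hsp90b1 (ENSMUSG00000020048.13, chromosome 10, 86690209 to 86705509), the ER Hsp90, was at 3.78, 167 and 582 FPKM in mutant and 76.5, 301 and 858 FPKM in wild-type cells, for -0.82. Hspa5 was thus the most abundant of the tested chaperones and had the smallest difference. Hyou1 did not reach the detection needed for a comparison and went the other way in raw share, detected in 26.1% of mutant cells (exact Clopper-Pearson 95% interval 16.3 to 38.1%) and 13.8% of wild-type cells (3.89 to 31.7%). Intervals here cover counting error only, and reads without molecular identifiers are not independent molecules.

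The cochaperones, which regulate the ATP cycle of Hspa5 or bind its clients, differed less, with a median of -0.34. Dnajc3 (-1.16) and Sil1 (-1.07), the latter a nucleotide exchange factor of Hspa5, passed -1, while Creld2 (-0.01) and Dnajb9 (0.05) lay at the median of all genes. Sil1 came to -0.44 as log2 of mean FPKM. All 6 oxidoreductases lay below 0, with a median of -0.83. Pdia6 (ENSMUSG00000020571.12, chromosome 12, 17266545 to 17284770), a disulfide isomerase, was at 0, 198 and 697 FPKM in mutant and 22.25, 519 and 887 FPKM in wild-type cells, for -1.25. Of all pairs of a mutant and a wild-type cell, the mutant cell was the higher one for Pdia6 in 13.8%. The other 5 oxidoreductases, P4hb, Pdia3, Pdia4, Erp29 and Erp44, lay between -0.95 and -0.62. Exons of Erp29 overlap those of Naa25 and Tmem116 by 2390 bases, so its value is uncertain.

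All 4 prolyl isomerases were at -1 or lower, with a median of -1.66. Of these, Fkbp11 and Fkbp10 were detected in under 25% of mutant cells and passed the detection filter only through the wild-type cells. Under other settings, 2 of the 4 did not stay at -1 or lower. Ppib lay at -0.95 within level bands and -0.90 as log2 of mean FPKM, and Fkbp10 at -0.63 with a pseudocount of 10 and -0.58 over all cells whatever their class. Fkbp11 (ENSMUSG00000003355.6, chromosome 15, 98724373 to 98728198), an ER isomerase abundant in secretory cells, was detected in 13.04% of mutant cells (interval 6.14 to 23.3%), as against 58.6% of wild-type cells (38.9 to 76.5%). Its median was 25.1 FPKM in wild-type and 0 in mutant cells, with highest cells at 491 and 413 FPKM. Its mean log2(FPKM + 1) was 3.74 ± 3.37 (SD, 29 cells) and 0.78 ± 2.11 (SD, 69 cells), and the relative difference of -2.70 ranked 15 from the lowest of 6275 genes. Fkbp2 (ENSMUSG00000056629.15, chromosome 19, 6977741 to 6980461) was at 0, 54.6 and 366 FPKM in mutant and 0, 171 and 749 FPKM in wild-type cells, for -2.08. Fkbp10 (ENSMUSG00000001555.10, chromosome 11, 100415697 to 100424824), which acts in collagen folding, was detected in 24.6% of mutant and 51.7% of wild-type cells, for -1.23. Ppib (ENSMUSG00000032383.6, chromosome 9, 66060169 to 66066629) was at 0, 734 and 1921 FPKM in mutant and 535, 1471 and 2512 FPKM in wild-type cells, for -1.10. No wild-type cell had Ppib below 535 FPKM. Exons of Ppib overlap those of Snx22 by 825 bases, so some of its reads could belong to Snx22.

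Within the translocon group the subunits parted. Ssr4 (ENSMUSG00000002014.12, chromosome X, 73787028 to 73790830) was at 0, 255 and 954 FPKM in mutant and 99.5, 849 and 1621 FPKM in wild-type cells, for -1.57. It is the only 1 of the 53 genes on the X chromosome, and genotype and sex cannot be told apart here. Sec61b (ENSMUSG00000053317.11, chromosome 4, 47474658 to 47483242), the beta subunit of the channel, was at 0, 139 and 439 FPKM in mutant and 26.5, 198 and 530 FPKM in wild-type cells, for -0.997, just short of the threshold. Sec61a1 (ENSMUSG00000030082.14, chromosome 6, 88503579 to 88518905), the pore-forming subunit of the same channel, was at 0, 33.4 and 236 FPKM in mutant and 0, 11.5 and 142 FPKM in wild-type cells, for 1.15. Its share of detecting cells was 78.3% in mutant (66.7 to 87.3%) and 62.1% in wild-type cells (42.3 to 79.3%). Sec61a1 overlaps exons of Gm44170 by 549 bases. The gamma subunit Sec61g lay at -0.71, so the alpha subunit stood on the other side of 0 from its partners. Over all genes the genotype difference also ran with transcript length. The median relative difference was -0.15 in the shortest of 8 length bands and 0.15 in the longest. The part of length in the parting of the subunits was not tested. The group as a whole had 7 of 10 genes below 0, with a median of -0.50.

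The oligosaccharyltransferase genes also spread, with a median of -0.40 and 5 of 8 below 0. Krtcap2 (ENSMUSG00000042747.12, chromosome 3, 89245966 to 89249906), a small subunit, was at 0, 82.9 and 288 FPKM in mutant and 31.5, 189 and 596 FPKM in wild-type cells, for -1.61. Dad1 (ENSMUSG00000022174.8, chromosome 14, 54235479 to 54254104), an essential subunit, was at 0, 174 and 898 FPKM and 69.98, 267 and 638 FPKM, for -0.56. Rpn1 (0.98) and the catalytic subunit Stt3a (0.92) lay above 0. In the signal peptidase, which cuts signal peptides, the catalytic subunit Sec11c was detected in 39.1% of mutant and 58.6% of wild-type cells (-1.45), and Spcs1 lay at -1.23. Spcs2, of the same complex, lay at 1.0, just inside the threshold, with medians of 61.5 FPKM in mutant and 41.2 FPKM in wild-type cells.

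Of the stress response regulators, Xbp1 (ENSMUSG00000020484.18, chromosome 11, 5520659 to 5525893), a transcription factor that drives ER capacity in secretory cells, was detected in 39.1% of mutant cells (27.6 to 51.6%) and 75.9% of wild-type cells (56.5 to 89.7%). Its levels were 0, 0 and 158 FPKM in mutant and 0, 29.1 and 134 FPKM in wild-type cells, for -1.69. The table does not separate spliced from unspliced Xbp1. Atf4 (ENSMUSG00000042406.7, chromosome 15, 80255184 to 80257540), the effector of the integrated stress response, lay at 0.46, with medians of 82.1 FPKM in mutant and 67 FPKM in wild-type cells. Ddit3 (CHOP; ENSMUSG00000025408.15, chromosome 10, 127290774 to 127296288), a stress-induced factor tied to cell death, was detected in 24.6% of mutant cells (15.1 to 36.5%) and 31.03% of wild-type cells (15.3 to 50.8%), for -0.14. The signs of Ddit3 and Dnajb9 changed between processing settings, so neither is given a direction. Herpud1 was detected in 15.9% of mutant and 17.2% of wild-type cells and was too rare to compare. Rcn2, a calcium-binding protein of the ER lumen, was the highest of the 53 at 1.68, with 0, 67.95 and 430.5 FPKM in mutant and 0, 21.6 and 146 FPKM in wild-type cells. The cargo receptors Tmed10 and Tmed9 lay at -1.15 and 0.80.

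The per-cell plot of 8 of these genes shows 2 kinds of lower mean. For Calr and Ssr4 the bulk of mutant cells is detected at a lower level, and for Fkbp11 and Xbp1 most mutant cells are at 0.

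**Figure D2:**
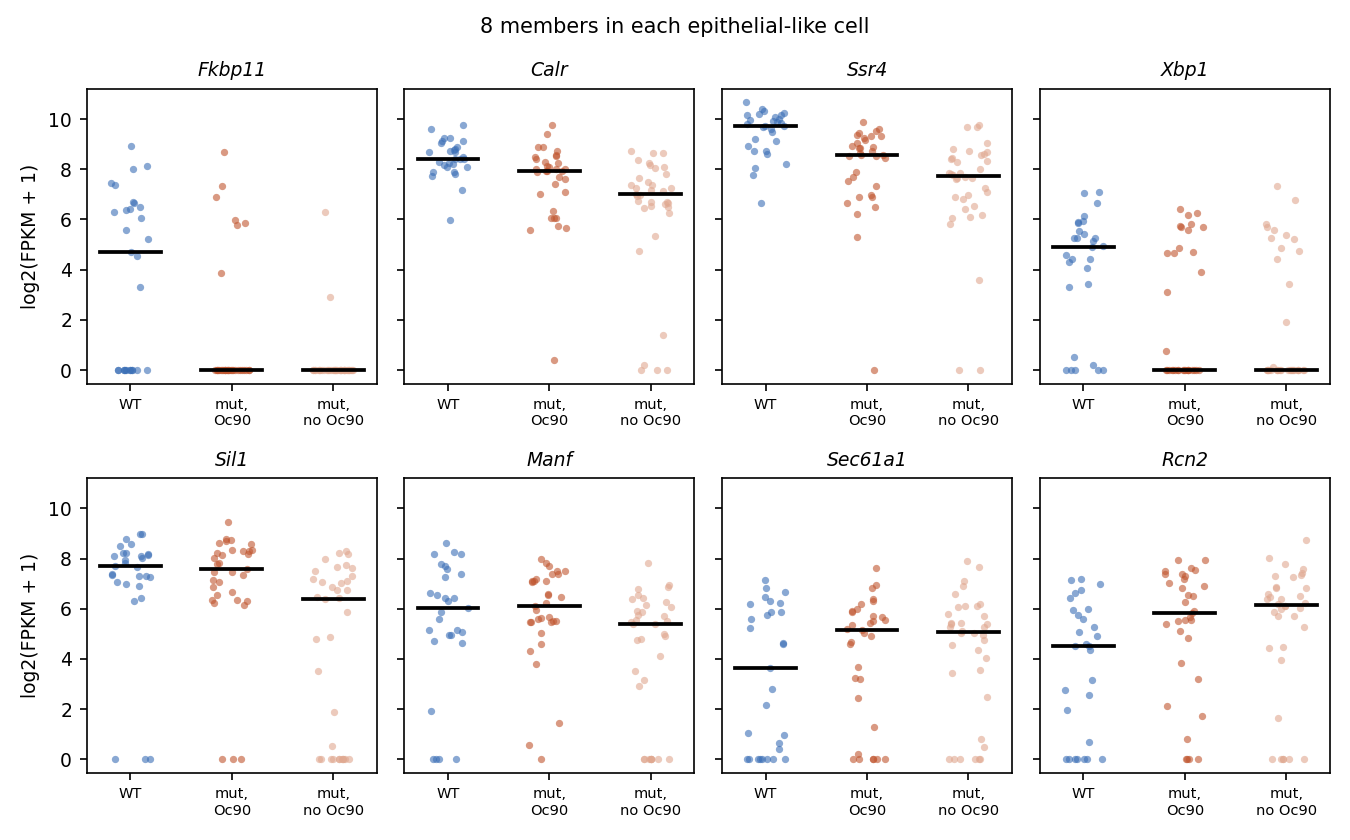
log2(FPKM + 1) of 8 genes in each epithelial-like cell (1 point per cell), for 29 wild-type cells (WT) and for 33 mutant cells with Oc90 at 1 FPKM or more and 36 without. Black bars are medians. The Fkbp11 and Xbp1 medians are at 0 in both mutant groups, and Sil1 and Manf are lower in mutant cells without Oc90 than in those with it.

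The genotype difference was also measured within parts of the epithelium. Cells were split by which retinaldehyde dehydrogenase, the enzyme class that makes retinoic acid, dominated: a cell was called Aldh1a1 or Aldh1a3 dominant where log2(FPKM + 1) of one exceeded that of the other by at least 1. These classes are ranges and not cell types, and 8 of 98 cells lay within 1 of the margin. In wild-type cells the per-cell mean of the ER genes was 5.74 ± 0.41 (SD, 12 cells) in Aldh1a1 dominant and 5.26 ± 0.48 (SD, 15 cells) in Aldh1a3 dominant cells. In mutant cells it was 5.13 ± 0.59 (SD, 35 cells) and 4.39 ± 0.55 (SD, 30 cells). As raw means, the ER genes were thus lower in Aldh1a3 dominant cells in both genotypes, and lowest in the mutant ones. Aldh1a3 dominant cells also listed fewer genes, with medians of 4898 against 5462 in wild-type and 4376 against 4659 in mutant cells. Their mean over all genes tested was lower too, at 2.78 against 2.95 and 2.74 against 2.86.

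**Figure D3:**
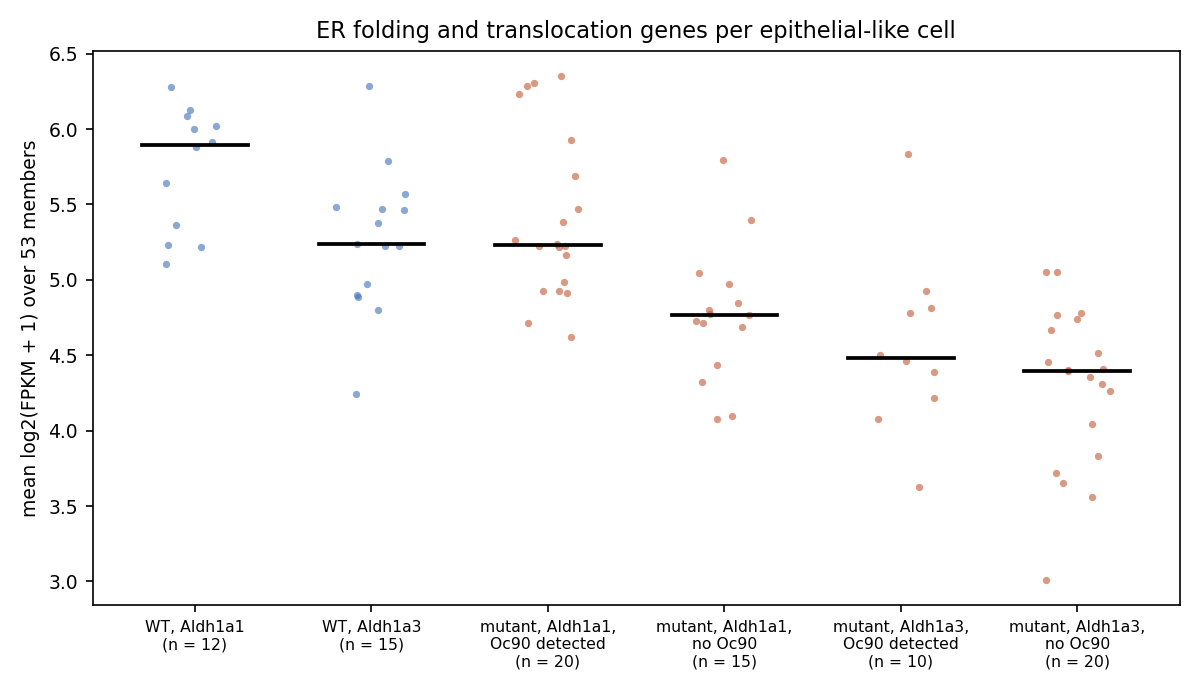
Mean log2(FPKM + 1) over the 53 ER genes in each epithelial-like cell (1 point per cell; black bars are medians), by genotype, dominant dehydrogenase and, in mutant cells, Oc90 detection. The medians step down from 5.90 in wild-type Aldh1a1 cells to 4.40 in mutant Aldh1a3 cells without Oc90, with overlap between neighbouring groups.

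Within wild-type cells, Aldh1a3 against Aldh1a1 dominance gave a median relative difference of -0.28 over 51 ER genes (-0.14 within level bands). At -1 or lower were 11 of them, against 16.1% of all 6713 genes tested, and at 1 or higher 4, against 14.9%. As a list the ER genes differed little between the wild-type classes. Single genes of the signal peptidase and isomerase groups differed widely. Sec11c was at 18.9 to 402 FPKM in all 12 Aldh1a1 dominant cells, with a median of 116, and was detected in 26.7% of the 15 Aldh1a3 dominant cells (7.79 to 55.1%), with a highest cell of 148 FPKM, for a relative difference of -5.12. Fkbp10 had the opposite pattern, with medians of 0 FPKM in Aldh1a1 and 40.8 FPKM in Aldh1a3 dominant cells and a relative difference of 4.28. It passed the detection filter only through the Aldh1a3 dominant cells. Fkbp2 lay at -2.49 and Spcs2 at 1.33. Sec11c and Fkbp10, the lowest and the highest of the 51, thus leaned to opposite wild-type classes in these 12 and 15 cells.

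Within mutant cells the same contrast was wider for the list. The median relative difference was -0.70 over 49 ER genes (-0.59 within level bands), 42 lay below 0, 21 were at -1 or lower against 12.4% of all 5978 genes tested, and 1 was at 1 or higher against 7.96%. The lowest were cochaperones. Sil1 was at 0, 81.2 and 421 FPKM in the lowest, median and highest Aldh1a3 dominant cell and at 0, 142 and 708 FPKM in Aldh1a1 dominant cells, for -2.56. Dnajb9, a J-domain partner of Hspa5, was detected in 50% of Aldh1a3 and 85.7% of Aldh1a1 dominant cells, for -2.34. Of the 7 cochaperones, 5 passed -1. At the other end, Fkbp10 lay at 1.46, detected in 36.7% and 14.3% of cells, and Ssr3 at 0.73. Fkbp10 passed the detection filter only through the Aldh1a3 dominant cells.

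Split the other way, the genotype difference of the list was larger in size in Aldh1a3 dominant cells. These comparisons share cells with those above, so their values stand side by side and no overlap between them is counted. Comparing mutant with wild type among Aldh1a3 dominant cells (30 and 15), the median over 50 ER genes was -0.86 (-0.77 within level bands), with 23 at -1 or lower against 12.5% of all 6349 genes, and 4 at 1 or higher against 9.83%. Among Aldh1a1 dominant cells (35 and 12), the median over 49 genes was -0.26 (-0.06 within level bands), with 10 at -1 or lower against 10.9% of all 6472 genes, and 3 at 1 or higher against 11%. The difference between these 2 comparisons was not tested. The 2 genotypes of the Aldh1a1 class sat in different clusters: all 12 wild-type cells lay in the cluster led by Oc90, and 31 of 35 mutant cells in the cluster led by Aldh1a1, which holds 0 wild-type cells. Of the Aldh1a3 class, 10 of 15 wild-type and 26 of 30 mutant cells shared the cluster led by Aldh1a3. In the Aldh1a1 dominant cells, where the list as a whole differed little beyond its level band, single genes stood out: Sec11c lay at -3.38, from a median of 116 FPKM in wild type to 36.6 FPKM in mutant cells, and Fkbp2 at -2.94, from 241 to 80.2 FPKM. Rcn2 (2.38) and Spcs2 (2.10) were the highest.

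In the Aldh1a3 dominant cells, all tested chaperones, oxidoreductases and prolyl isomerases lay below 0, with medians of -1.08, -1.27 and -2.32, and 6 of 7 cochaperones did, with a median of -1.19. The oligosaccharyltransferase genes had a median of -0.07 with 4 of 8 below 0, the stress response regulators 0.09 with 1 of 3, and the cargo receptor and calcium-binding genes 0.77 with 2 of 4. Fkbp11 lay at -2.93, with detection in 10% of mutant and 53.3% of wild-type cells, and passed the detection filter only through the wild-type cells. Fkbp10 lay at -2.58, from a median of 40.8 to 0 FPKM. Ppib was at 0, 453 and 1657 FPKM in mutant and 912, 1498 and 2512 FPKM in wild-type cells, for -2.06, and the mutant cell was the higher one in 5.56% of mutant and wild-type pairs. In the Aldh1a1 dominant cells Ppib lay at -0.14. Calr lay at -1.86 and -0.81 and Xbp1 at -2.40 and -0.80 in Aldh1a3 and Aldh1a1 dominant cells. Hspa5 lay at -0.78 and -0.12 in the same order. The highest in Aldh1a3 dominant cells were Tmed9 (1.84) and Sec61a1 (1.64).

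**Figure D4:**
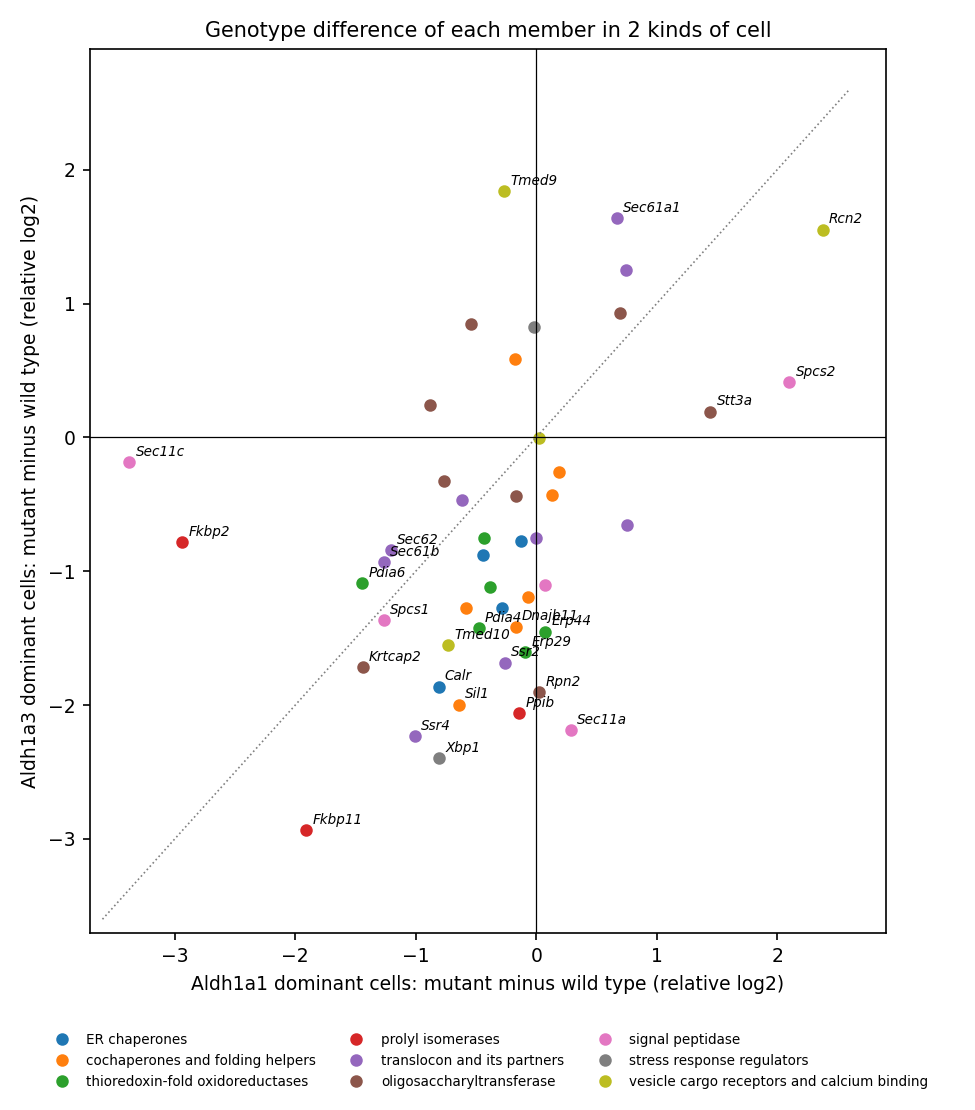
Relative genotype difference (mutant minus wild type, log2(FPKM + 1) scale) of each ER gene tested in both, in Aldh1a1 dominant cells (x axis, 35 mutant and 12 wild type) and Aldh1a3 dominant cells (y axis, 30 and 15), coloured by role; the dotted line marks equal values. Most points lie below that line, with Ppib at -0.14 and -2.06, while Sec11c (-3.38 and -0.19) and Fkbp2 lie far above it.

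Wild-type epithelial-like cells detected Oc90 in 29 of 29 cells, so a split by Oc90 was possible only in mutant cells. There it was at 1 FPKM or more in 33 cells and below in 36, all 36 of which were at 0. ER genes were higher in the cells with Oc90, although both groups listed a like number of genes (median 4489 and 4455.5). The per-cell mean was 5.07 ± 0.68 (SD, 33 cells) with Oc90 and 4.46 ± 0.57 (SD, 36 cells) without. The median relative difference over 48 ER genes was 0.58 (0.53 within level bands), and 40 lay above 0. At 1 or higher were 10, against 7.41% of all 5843 genes tested, and at -1 or lower were 0, against 4.93%.

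The genes that separated these cells were mostly the cochaperones, of which 6 of 7 passed 1 and whose median was 1.57. Sil1 was at 0, 192 and 708 FPKM in the lowest, median and highest cell with Oc90 and at 0, 83.7 and 310 FPKM without, for a relative difference of 2.51. Dnajb9 was detected in 87.9% of cells with Oc90 (71.8 to 96.6%) and 52.8% without (35.5 to 69.6%), for 2.04. Manf, a secreted factor that also binds Hspa5, lay at 1.60, with medians of 67.9 and 40.8 FPKM. Creld2 (1.57), the Hspa5 partner Sdf2l1 (1.45) and Dnajb11 (1.24) followed. Beyond this group, Pdia4 (1.42), Rpn2 (1.22), Calr (1.21) and Erp44 (1.20) passed 1. Creld2 (-0.01) and Dnajb9 (0.05) had lain near 0 between genotypes, although Dnajb9 reached 1.06 there in cells with 3000 to 5000 listed genes.

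Hspa5, the partner of these cochaperones, did not follow them. Its medians were 211 FPKM with Oc90 and 226 FPKM without, for a relative difference of 0.08. The lowest genes were Sec11a (-0.55) and Sec61g (-0.41), and 2 of 5 signal peptidase and 3 of 9 translocon genes lay below 0. Fkbp11, lowest of all between genotypes, was too rare in mutant cells to be tested: it was detected in 21.2% of cells with Oc90 and 5.56% without. The contrast with Oc90 also held in part a contrast of dominance, since Oc90 was found in 57.1% of Aldh1a1 and 33.3% of Aldh1a3 dominant mutant cells. Within Aldh1a1 dominant cells (20 with, 15 without), the median was 0.57, with 14 of 48 ER genes at 1 or higher against 10.9% of all genes, and 0 at -1 or lower against 9.61%. Within Aldh1a3 dominant cells (10 with, 20 without) it was 0.18, with 7 of 49 at 1 or higher against 13.4% and 4 at -1 or lower against 12.5%. By these counts the share past 1 was above the background in Aldh1a1 dominant cells and close to it in Aldh1a3 dominant cells. The difference between the classes was not tested.

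**Figure D5:**
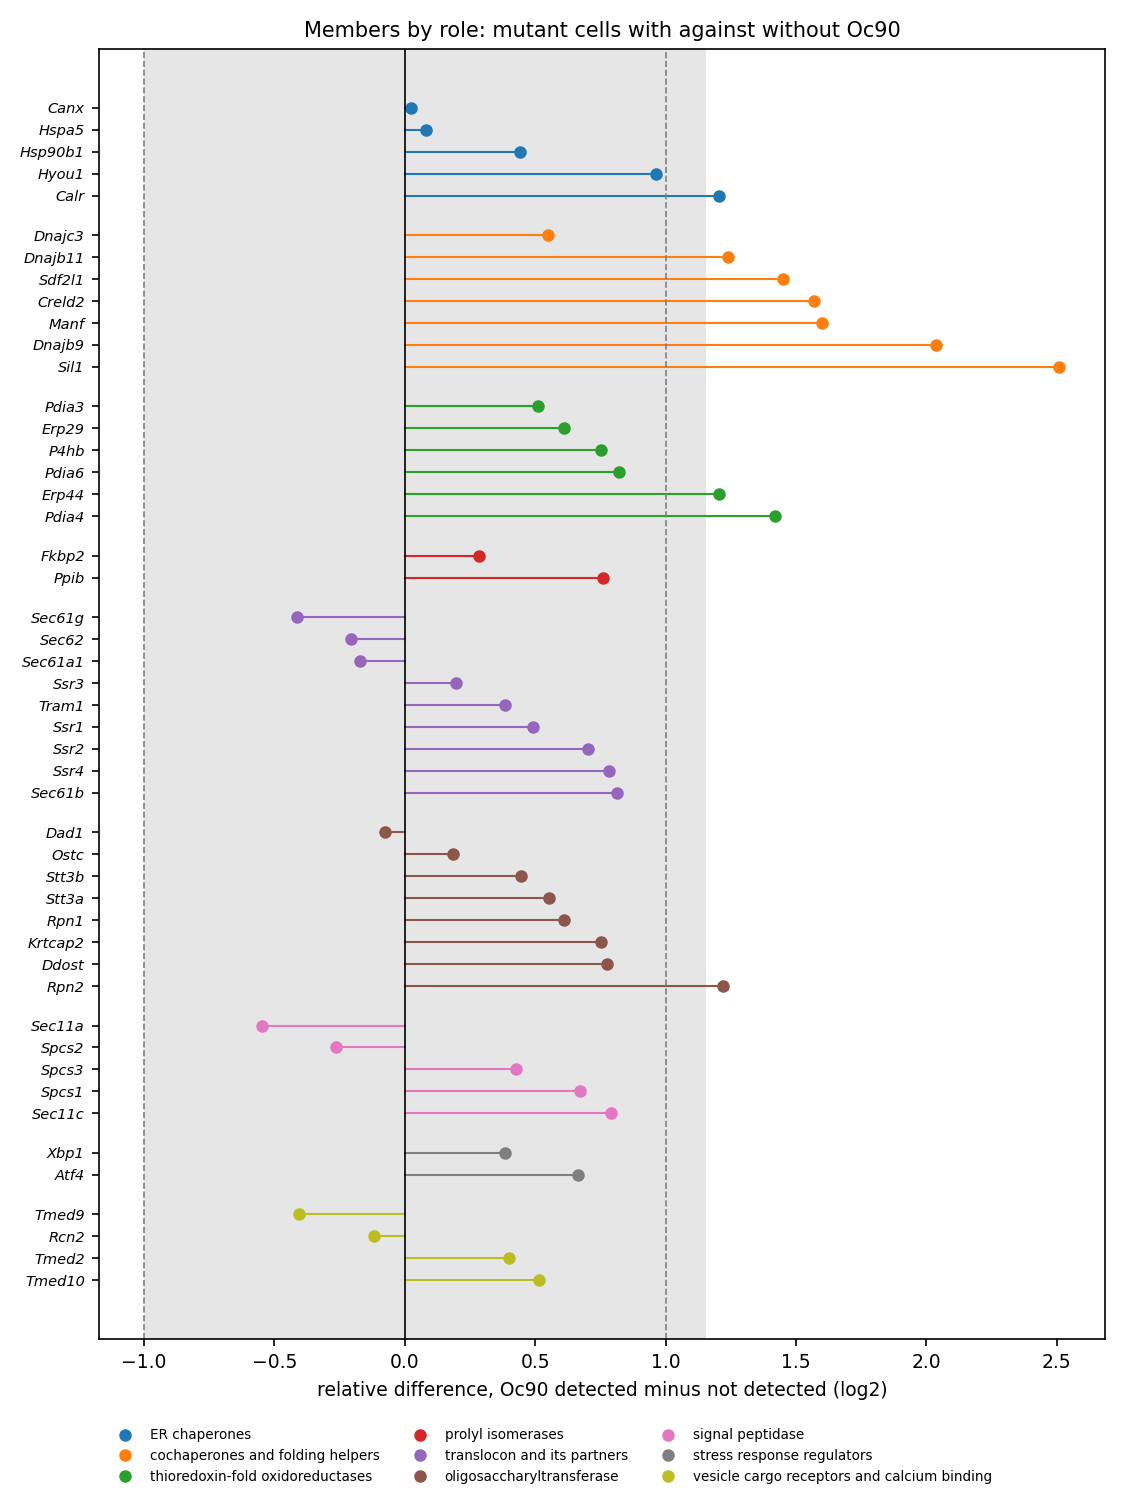
Relative difference of each tested ER gene, mutant epithelial-like cells with Oc90 at 1 FPKM or more (33) minus those without (36), on the log2(FPKM + 1) scale (x axis), grouped and coloured by role. The grey area spans the 5th to 95th percentile of all 5843 genes tested and dashed lines mark -1 and 1. Sil1 lies farthest to the right at 2.51, and the chaperones Canx and Hspa5 lie close to 0.

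Genes with an ERSE or ERSE-II in the window did not stand apart by much. Between genotypes, the 9 tested genes with a match had a median of -0.82 and the 31 without a match -0.68. With against without Oc90 in mutant cells, the medians were 0.75 and 0.53. In Aldh1a3 dominant cells, mutant against wild type, they were -1.27 and -0.77. Fkbp11, Fkbp2 and Xbp1, the lowest between genotypes, had no match in the windows searched.

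Genes next to this machinery, 69 in 7 related lists, were compared in the same way. Between genotypes 49 were tested, with a median of -0.11, beside -0.69 for the 51 ER genes. At -1 or lower were 6 of them (12.2%, against 7.06% of all genes tested) and at 1 or higher 0 (against 4.83%). The lowest were Prdx4, an ER peroxidase (-2.01), Ppp1r15a, the phosphatase subunit that ends the integrated stress response (-1.77), and Edem2 of ER-associated degradation (-1.43). The highest were Atf3, a stress-induced transcription factor (0.87), and Sec24b of the COPII coat (0.84). The list medians ran from -0.83 for 5 integrated stress response targets and -0.54 for 7 other oxidative folding enzymes to -0.05 for the signal recognition particle genes and 0.22 for 11 genes of the COPII coat, which forms the vesicles that leave the ER. Degradation genes (-0.26), retrieval receptors (-0.20) and stress sensors (-0.05) lay between. With against without Oc90 in mutant cells, the median of 49 related genes was 0.36, with 5 at -1 or lower (10.2%, against 4.93% of all genes) and 8 at 1 or higher (16.3%, against 7.41%). Between the wild-type dominance classes their median was -0.35, beside -0.28 for the ER genes.

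Summed marker levels of other cell classes were low in most epithelial-like cells, with exceptions, and were not equal between the genotypes. The 10 mitochondria-rich markers had a median of 0 in both genotypes, with highest cells at 68.1 in mutant and 34.4 in wild-type cells and Dmrt2 at 0 in all. The 7 erythroid markers had a median of 0 as well, with highest cells at 65.9 and 8.01, and 1 mutant cell held 3 or more of them. In epithelial-like cells the summed level of 10 mesenchymal markers had a median of 0 in both genotypes (range 0 to 12.7 in mutant and 0 to 51.8 in wild-type cells), and Tbx18 was at 0 in all. The 7 endothelial markers had a median of 0 as well, with Pecam1 and Cdh5 at 0 in all cells. The 10 epithelial markers summed to a median of 69.99 in mutant (47.4 to 83.3) and 76.3 in wild-type cells (61.1 to 88.2). Oc90 is 1 of these markers, and it was detected in all 29 wild-type cells and at 0 in 36 of 69 mutant cells. The sums without Oc90 were not measured. The 5 melanocyte markers summed to a median of 0 in mutant (0 to 11.4) and 4.98 in wild-type cells (0 to 8.11), with Tyr, Tyrp1 and Mlana at 0 in all. The 6 glial and neural crest markers summed to 0.718 (0 to 11.3) and 3.69 (0 to 10.2), with Foxd3 and Fabp7 at 0 in all. Between mutant cells with and without Oc90, the epithelial markers, of which Oc90 is 1, summed to medians of 72.96 and 65.5. The glial and neural crest markers summed to medians of 2.61 (0 to 11.3) and 0 (0 to 9.03) in the same cells. The part of these lists in the results was not tested. Without the 5 epithelial-like cells that held 3 or more mitochondria-rich or mesenchymal markers the median genotype difference of the ER genes was -0.78. Per-cell means of the ER genes ran with the number of listed genes, with r = 0.52 and rho = 0.48 over 69 mutant cells and r = 0.26 and rho = 0.30 over 29 wild-type cells, where both values share library and depth.

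Outside the epithelial-like cells the numbers were small. In mitochondria-rich-like cells the per-cell mean of the ER genes was 5.25 and 6.15 in the 2 wild-type cells and 4.58 ± 0.45 (SD, 7 cells) in mutant cells, at 4.02 to 5.30. The mutant cell at 5.30 is among the 4 with a Y-linked transcript and Xist at 0 described below. The next highest mutant cell was at 4.79. In the unnamed cluster, the 10 cells with 3 or more mesenchymal markers had a mean of 4.69 ± 0.55 (SD). Xist was at 0 and a Y-linked transcript was present in 4 cells labelled mutant. Their mean was 5.603 ± 0.62 (SD), within the range of both genotypes, and they listed a median of 6609.5 genes. Without them, the median genotype difference of the ER genes in epithelial-like cells was -0.73. The only wild-type cell of prefix P9 had 4.97, below the wild-type median and within the range of both genotypes.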

How the data were processed

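Single cells of mouse endolymphatic sacs were profiled by Smart-seq2, per the labels' protocols. The authors deposited 1 table of FPKM values, with 48555 rows for 48490 gene identifiers and a column for each of 126 cells. HISAT2, Cufflinks, HTSeq and SAMtools 0.1.18, with the build mm10, are listed without roles in the submitters' processing notes. Which annotation release and strand setting were used is not given in the sources used here. FPKM carries no read number, so depth is unknown and the number of genes listed above 0 stood in for it.

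Rows of the 49 identifiers with several rows were summed. Cells were clustered on log2(FPKM + 1) of the 2000 most variable genes (20 components, 15 neighbours, Leiden resolution 1; scanpy 1.11.5, leidenalg 0.10.2, Python 3.11.15) and named from marker lists. No cell was removed, and doublets were not called. Each group counts as 1 sample, so no test was made and no p-value is given. Means of log2(FPKM + 1), with a pseudocount of 1 that understates differences of scarce genes, were compared over genes whose share of cells with 1 FPKM, averaged over both groups, was 25% or above. The median over all genes tested was subtracted. Because detection below 1 FPKM can be failed capture, a gene there is called not detected, never absent. Fewer transcripts per cell and fewer captured transcripts cannot be told apart.

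Genes described in full were the 8 lowest and 4 highest in the genotype comparison, the 2 lowest and 2 highest of each other comparison, and a set given whatever its values (Hspa5, Hsp90b1, Calr, Sec61a1, Sec61b, Ssr4, Dad1, Ppib, Fkbp11, Xbp1, Atf4, Ddit3, Hyou1, Fkbp10). The members, the related lists and the marker lists were chosen with earlier results of these data known. Other values named were chosen after they were seen. The comparison step was checked by planting known shifts in real mutant cells split at random, which tests its arithmetic only. Alternatives were other pseudocounts, filters, scalings, centrings, cell sets, dominance margins and Oc90 levels, and, chosen after seeing the data, classes by marker counts, cells without markers of another class, cells without the wild-type P9 cell, bands of transcript length and Oc90 within dominance classes. Coordinates are those of the table, counted from 1, and promoter windows are from RefSeq (GRCm38.p6).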

Additional observations from a re-analysis of the deposited data

Results flagged for a closer look

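Sec11a, a catalytic subunit of the signal peptidase, differed in opposite directions between Aldh1a3 and Aldh1a1 dominant cells in the 2 genotypes. Its relative difference was 1.13 in wild-type cells, where all 15 Aldh1a3 dominant cells were between 32.99 and 279 FPKM, and -1.31 in mutant cells, where it was detected in 63.3% of Aldh1a3 and 88.6% of Aldh1a1 dominant cells. The difference between the genotypes was not tested, and exons of Sec11a overlap those of Gm16171 and Nmb by 379 bases.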

How the results depend on the processing

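Over the alternatives run, the median relative difference of the ER genes was -0.91 to -0.51 between genotypes, -0.86 to -0.53 between mutant dominance classes, 0.42 to 0.75 with against without Oc90, -0.49 to -0.06 between genotypes in Aldh1a1 dominant cells and -1.12 to -0.62 in Aldh1a3 dominant cells, with no change of sign. Between wild-type dominance classes it went from -0.42 to 0.01, and the sign turned in cells with 3000 to 5000 listed genes (0.006052; 8 against 3 cells). The count of ER genes at -1 or lower between genotypes, 14, was 7 with a pseudocount of 10, 9 with detection in 50% of cells, 23 with no filter on low values and 8 as log2 of mean FPKM. The count at 1 or higher, 3, was 6 with a pseudocount of 0.1 and in cells with 3000 to 5000 listed genes, 5 with detection in 50% of cells, rescaling to 1000000, level bands or without the wild-type P9 cell, and 1 with a pseudocount of 10, no filter or log2 of mean FPKM. Without a filter, genes undetected in most cells enter the subtracted median. The cause of the other shifts was not tested. No paired analysis was possible because cells carry no replicate number shared between genotypes. The unknown depth limits what a value of 0 means, above all for Fkbp11, Fkbp10, Xbp1, Sdf2l1 and Ddit3.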
